A study of Rattus norvegicus with 4 samples.

Results

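The endothelial and vessel growth genes described here are Cdh5, Kdr, Flt1, Tek, Vwf, Angpt1, Angpt2, Apln, Aplnr and Esm1, 10 of the 32883 genes in the deposited table, found by their symbols. The tissue is the carotid body (CB), a small oxygen-sensing organ at the fork of each carotid artery, and its RNA was sequenced at 2 ages of untreated Sprague-Dawley rats, postnatal day 5 (neonates) and day 21 (called adults in the study). There were 4 libraries, 2 per age, each from whole CBs pooled over several animals of both sexes, 6 pups or 3 day 21 rats by the labels and 8 or 4 by the methods. The deposited estimated counts summed to between 36286191 and 39476110 per library. The labels set the groups apart by age alone, and a level here belongs to a mixture of all cells of the organ and to several animals at once.

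Blood vessels grow when endothelial cells sense VEGF through the receptor Kdr, while Flt1 binds VEGF tightly and passes on less signal. Angpt1 and Angpt2 are ligands of the receptor Tek (TIE2), the first a steadying agonist made largely by cells around the vessel, the second a context-dependent ligand made by endothelium itself. Apln is a peptide released by sprouting endothelium that acts on Aplnr, and Esm1 is a secreted proteoglycan of tip cells, while Cdh5 (VE-cadherin) holds endothelial junctions together and Vwf is the clotting protein that endothelium stores. The CB is among the most richly perfused organs, with glomus cells, its oxygen sensors, lying against wide fenestrated capillaries.

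The libraries differed in more than vessels. Pth, the hormone gene of the parathyroid, stood at 1595 CPM (a gene's raw counts scaled to a common library total) in the first neonatal library and at 194 CPM in the other, and no adult library held a count of it, where 3 counts would be at most 0.0827 CPM. Gcm2 and Casr, the other parathyroid markers examined, had at most 19.9 and 1.06 CPM. Erythroid markers, led by Hba-a1, an alpha globin gene, summed to 11730 and 6903 CPM in neonates and 3052 and 2699 CPM in adults. Mitochondrially encoded genes took 18.7% and 15.6% of the neonatal counts and 9.06% and 9.08% of the adult counts. This share moved with age, and TMM factors were 0.902 and 0.935 for neonates and 1.081 and 1.10 for adults. Without them, with libraries scaled to their totals alone, the median of all log2 fold changes moved from -0.0029 to -0.25, and small changes below are to be read against that shift.

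Endothelial markers were plainly present in every library. Cdh5 had between 223 and 237 CPM throughout, and of 22 other pan-endothelial markers found in the table, 21 passed the filter of at least 1 CPM in 2 libraries. Their summed level was 1715 and 1706 CPM in neonates and 1971 and 1972 CPM in adults. After TMM scaling the same sums were 1902 and 1824 CPM against 1823 and 1799 CPM. The neonatal sum was thus lower by 0.20 on the log2 scale from raw counts and higher by 0.041 after TMM scaling, a direction that depends on the scaling. An exact two-sided permutation test gave p = 0.333 for each of these sums, the smallest p that 2 libraries against 2 allow. In bulk RNA, fewer endothelial cells and less RNA per endothelial cell cannot be told apart. As a mean of log2 CPM from raw counts over the list, the level had a log2 ratio of -0.28, with no overlap between ages. The 10 genes are therefore also described for how they moved against one another.

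Of the 10 genes, Apln and Esm1 were higher in neonates and Flt1, Tek, Vwf, Angpt1 and Angpt2 were lower, at an adjusted p under 0.05. Cdh5, Kdr and Aplnr did not pass the test. A gene is called at that threshold in edgeR's quasi-likelihood test on TMM-scaled counts, with p adjusted by Benjamini-Hochberg over all 13843 genes tested, and all log2 fold changes are neonate over adult. Of all genes tested, 31.2% were called higher and 31.1% lower in neonates, so 2 and 5 of 10 describe these genes and do not set them apart. With a fold change of at least 2 as well, 1 member was higher (Apln) and 1 lower (Angpt1), against 7.68% and 13.2% of all genes. The median log2 fold change of the 10 was -0.082, against -0.0029 for all genes. All 10 passed the filter on low counts, Angpt1 through its adult libraries alone, so its place among the genes tested already called for a difference. In TMM-scaled CPM the ages did not overlap for 9 of the 10, 4 higher in neonates and 5 higher in adults, with 83.0% of all genes not overlapping. In CPM from raw counts they did not overlap for 7, 1 higher in neonates and 6 in adults, with 83.1% of all genes not overlapping. Without neonate replicate 1, the library rich in Pth, the log2 fold change of Kdr was 0.34 and Kdr was added to those higher. In that fit Tek was at -0.27 and lost its call. Without neonate replicate 2, Aplnr was added to those higher, and without adult replicate 1, Esm1 lost its call. Each of these fits rests on 1 library at 1 of the ages.

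**Figure D1:**
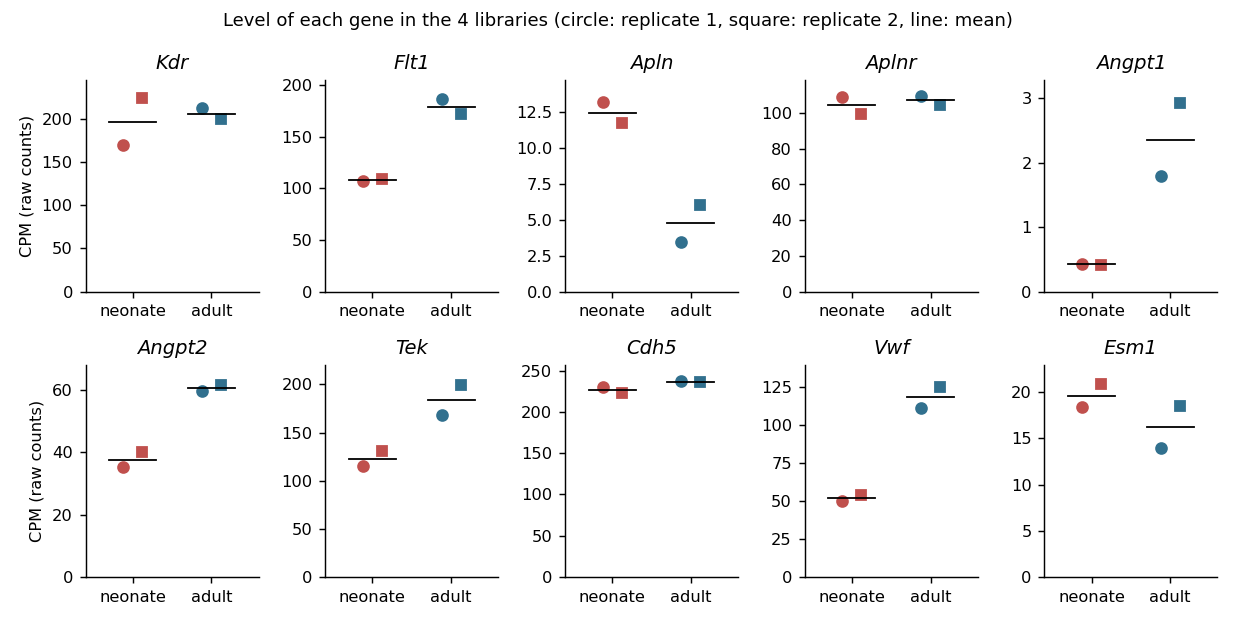
CPM from raw counts (y axis, linear from 0, a scale of its own in each panel) of the 10 genes in the 2 neonatal and 2 adult libraries, circles for replicate 1, squares for replicate 2 and a line at the mean of each age. Flt1, Tek, Vwf, Angpt1 and Angpt2 lie higher in both adult libraries, as does Cdh5 by a little. Apln lies higher in both neonatal libraries, and for Kdr, Aplnr and Esm1 the ages overlap.

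Of the VEGF receptors, Flt1 was called lower in neonates and Kdr did not pass the test, and the difference between them was not tested. Flt1 (ENSRNOG00000000940) had 107 and 109 CPM in neonates and 186 and 172 CPM in adults. Both adult libraries were well above both neonatal ones, and replicates of an age lay close together. Its log2 fold change was -0.48 (standard error 0.078; edgeR, Benjamini-Hochberg adjusted p = 0.00067), a level 1.40-fold lower in neonates. Kdr (ENSRNOG00000046829) had 169 and 224 CPM in neonates and 212 and 200 CPM in adults. The neonatal libraries enclosed the adult ones, so the ages could not be separated by this gene. Its log2 fold change of 0.17 (standard error 0.11) did not pass the test (edgeR, Benjamini-Hochberg adjusted p = 0.21). It was 0.34 without neonate replicate 1 (adjusted p = 0.017 in edgeR's test) and -0.0048 without neonate replicate 2 (adjusted p = 0.97 in the same test).

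RefSeq promoters, from 250 bases before to 50 after the annotated start in the assembly GRCr8, were matched by symbol for 4 of the 10 genes, and the receptor pair is shown because Flt1 was called and Kdr was not. Sequences run 5′ to 3′ on the strand of the gene, and capitals mark AGGAAG on either strand, a core bound by ETS factors that endothelial genes often carry, or TATAAA, the TATA box. The promoter of Flt1 is at chr12:12333180-12333479 (+ strand) and that of Kdr at chr14:32571813-32572112 (+ strand), in GRCr8 and not in Rnor_6.0, the build named for the counts.
Flt1: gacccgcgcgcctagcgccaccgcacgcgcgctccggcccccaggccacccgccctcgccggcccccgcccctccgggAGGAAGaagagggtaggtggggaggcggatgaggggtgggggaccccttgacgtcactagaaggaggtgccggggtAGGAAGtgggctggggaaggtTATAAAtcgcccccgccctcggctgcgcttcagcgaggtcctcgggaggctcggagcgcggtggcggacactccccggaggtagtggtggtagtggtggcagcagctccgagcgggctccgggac
Kdr: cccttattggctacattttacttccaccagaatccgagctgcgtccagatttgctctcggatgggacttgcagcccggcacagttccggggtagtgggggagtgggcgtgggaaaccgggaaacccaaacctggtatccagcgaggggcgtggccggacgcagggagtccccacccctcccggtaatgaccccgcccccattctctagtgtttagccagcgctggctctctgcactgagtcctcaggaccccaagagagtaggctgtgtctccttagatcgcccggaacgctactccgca

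In this window Flt1 holds AGGAAG at -172 and -96 and TATAAA at -75 (with the start base as 0), and Kdr holds neither. AGGAAG on either strand is in 34.5% of all 33469 promoters of this length and TATAAA in 14.2%. A search for GCGTG, one form of the core that hypoxia-inducible factors bind, found 2 matches in Kdr and 1 in Flt1, on either strand, and 29.7% of all promoters hold one. The other form, ACGTG, is in 19.3% of promoters and in neither of these, as is the forkhead core GTAAACA, which is in 3.78%. Such matches describe letters only.

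Tek and both of its ligands among the 10 genes were lower in neonates. Tek (ENSRNOG00000008587) had 115 and 131 CPM in neonates and 168 and 199.5 CPM in adults. The adult libraries were both higher, although they differed between themselves more than the neonatal ones did. The log2 fold change was -0.34 (standard error 0.094; edgeR, Benjamini-Hochberg adjusted p = 0.012), and the call was lost without neonate replicate 1 (adjusted p = 0.069 in edgeR's test) and without adult replicate 2 (adjusted p = 0.077 in the same test). Angpt2 (ENSRNOG00000016696) had 35.3 and 39.9 CPM in neonates against 59.7 and 61.6 CPM in adults. Replicates lay close together and the ages did not overlap. Its log2 fold change was -0.45 (standard error 0.092; edgeR, Benjamini-Hochberg adjusted p = 0.0027), which is 1.36-fold.

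Angpt1 (ENSRNOG00000005854) was the scarcest of the 10 in counts. It had 17 and 16 counts in the neonatal libraries and 68 and 106 in the adult libraries, or 0.431, 0.416, 1.80 and 2.92 CPM. The neonatal values were nearly equal, and the adult values were all above them but 1 adult library held far more than the other. It was 4.67-fold lower in neonates (log2 fold change -2.22, standard error 0.43; edgeR, Benjamini-Hochberg adjusted p = 0.0018), the largest change of the 10. Over 13 alternatives in which it was tested, its log2 fold change ran from -2.52 to -1.85. It fell below the stricter filter of a mean of 5 CPM and was not tested there. In the main fit Angpt1 passed the filter through its adult libraries alone, so its being tested already called for a difference. The alternatives reuse the same libraries and are not separate support.

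Angpt1 is known to come largely from cells around the vessel, and markers of those cells also moved. Of 10 pericyte and smooth muscle markers, 6 were called lower in neonates and 2 higher (Pdgfrb and Kcnj8), and their summed level was 1377 and 1490 CPM in neonates against 2590 and 2809 CPM in adults. The most abundant of them, Rgs5, had 272 and 247 CPM against 1088 and 1062 CPM, and none of the list was at 0. Fibroblast markers summed to 11660 and 14460 CPM in neonates and to 17990 and 20190 CPM in adults, with Col3a1 the most abundant. Of these, Dcn, Pdgfra and Lum were called lower in neonates and Col1a1 and Col3a1 did not pass the test. The part of these cells in the level of Angpt1 was not tested.

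Lymphatic endothelium expresses Tek and Angpt2 as well. Of 6 lymphatic markers tested, 5 were called lower in neonates and 1 (Pdpn) higher, with sums over the 7 listed of 275 and 349 CPM in neonates and 963 and 1096 CPM in adults. Ccl21, the most abundant, had 157 and 202 CPM against 563 and 650 CPM. Prox1, the factor that defines lymphatic identity, had 2.61 and 1.92 CPM against 10.7 and 15.6 CPM, and Stab2 had at most 0.496 CPM in any library. The part of lymphatic cells in the levels of Tek, Angpt2 and Vwf was not tested.

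Of the apelin pair, the ligand was higher in neonates and the receptor did not pass the test. Apln (ENSRNOG00000003984) had 13.2 and 11.8 CPM in neonates and 3.47 and 6.04 CPM in adults. Both neonatal libraries were high, and the adult libraries were low but differed from each other by more than the neonatal ones. The log2 fold change was 1.64 (standard error 0.26; edgeR, Benjamini-Hochberg adjusted p = 0.00064), or 3.12-fold higher in neonates, and it kept its call under all 14 alternatives, from 1.31 to 2.08. Aplnr (ENSRNOG00000009227), a G protein-coupled receptor, had 109 and 99.4 CPM in neonates and 109 and 105 CPM in adults. In CPM from raw counts the libraries of the ages were intermixed. After TMM scaling Aplnr had 121 and 106 CPM in neonates against 101 and 95.5 CPM in adults, without overlap. Its log2 fold change of 0.21 (standard error 0.087) did not pass the test (edgeR, Benjamini-Hochberg adjusted p = 0.062), and it was -0.038 when libraries were scaled by their totals alone.

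Esm1 (ENSRNOG00000010797), the other member higher in neonates, was less firm. It had 18.4 and 20.9 CPM in neonates and 13.9 and 18.55 CPM in adults. Adult replicate 2 lay just above neonate replicate 1, so the ages overlapped before TMM scaling and parted after it. Its log2 fold change of 0.52 (standard error 0.15; edgeR, Benjamini-Hochberg adjusted p = 0.014) fell to 0.28 with library totals alone (adjusted p = 0.16 in edgeR's test) and to 0.34 without adult replicate 1 (adjusted p = 0.089 in the same test). The promoters of Apln, at chrX:132091197-132091496 (- strand), and Esm1, at chr2:46609003-46609302 (+ strand), are shown as those of the members higher in neonates, with capitals as above.
Apln: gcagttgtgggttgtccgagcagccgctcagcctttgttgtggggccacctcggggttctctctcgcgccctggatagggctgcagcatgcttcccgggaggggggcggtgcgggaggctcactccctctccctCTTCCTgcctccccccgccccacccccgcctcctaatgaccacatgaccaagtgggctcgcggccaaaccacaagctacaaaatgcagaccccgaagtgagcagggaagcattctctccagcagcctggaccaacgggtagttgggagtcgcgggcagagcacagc
Esm1: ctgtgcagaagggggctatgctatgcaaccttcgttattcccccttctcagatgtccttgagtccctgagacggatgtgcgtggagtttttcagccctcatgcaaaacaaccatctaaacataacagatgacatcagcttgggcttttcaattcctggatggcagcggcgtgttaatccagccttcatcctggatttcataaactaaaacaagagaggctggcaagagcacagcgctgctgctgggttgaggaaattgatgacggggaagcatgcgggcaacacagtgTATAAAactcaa

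Apln holds 1 AGGAAG, at -116 and on the opposite strand, where it reads CTTCCT, and no TATAAA. Esm1 holds TATAAA at 38, after the annotated start, and no AGGAAG. The hypoxia core GCGTG occurs at -172 and -83 in Esm1 and not in Apln. The forms ACGTG and GTAAACA are in neither. The GC share of the window was 48.7% for Esm1, 65.0% for Apln, 61.0% for Kdr and 72.7% for Flt1.

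Of Cdh5 and Vwf, both used as general markers of endothelium, Vwf was called lower in neonates and Cdh5 did not pass the test, and the difference between them was not tested. Cdh5 (ENSRNOG00000013324) had 230 and 223 CPM in neonates and 237 and 236 CPM in adults. Adults were higher by a little in raw CPM, and neonates were higher after TMM scaling, with a mean of 246.9 ± 11.9 CPM against 217.5 ± 2.585 CPM (TMM-scaled, SD, n = 2). The log2 fold change of 0.18 (standard error 0.079) did not pass the test (edgeR, Benjamini-Hochberg adjusted p = 0.069) and was -0.063 with library totals alone. Vwf (ENSRNOG00000019689) had 49.7 and 54.15 CPM in neonates and 111 and 125 CPM in adults. The ages were far apart against the spread within each. Its log2 fold change was -0.94 (standard error 0.088; edgeR, Benjamini-Hochberg adjusted p = 3.5e-05), or 1.92-fold lower in neonates, and it kept its call under all 14 alternatives.

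Platelets also carry Vwf. Of 6 platelet and megakaryocyte markers, 2 passed the filter on low counts, Ppbp had at most 1 count in any library, and Pf4, the most abundant, had 3.88 and 4.75 CPM in neonates and 1.83 and 1.68 CPM in adults. These markers summed to 6.26 and 6.435 CPM in neonates and 4.04 and 3.82 CPM in adults. Pf4 carried that difference, and Itga2b, the other marker tested, overlapped between ages, with 1.98 and 1.32 CPM in neonates and 1.83 and 1.85 CPM in adults. The part of platelets in the level of Vwf was not tested.

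**Figure D2:**
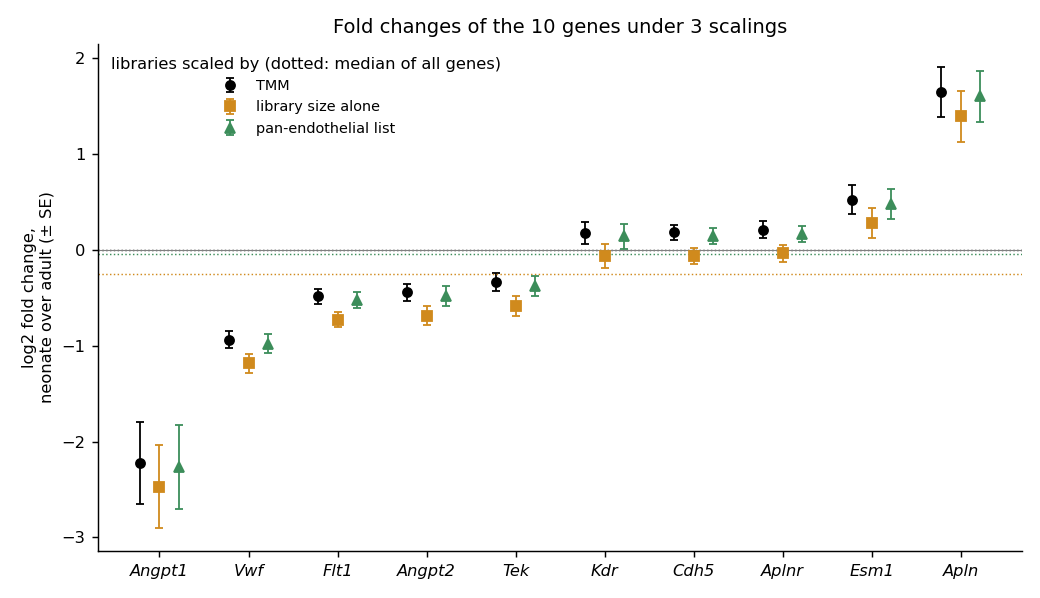
Log2 fold change, neonate over adult, with its standard error for each of the 10 genes, with libraries scaled by TMM (circles), by their totals alone (squares) or to the pan-endothelial list (triangles), and dotted lines at the median of all genes under each scaling. Apln (1.64 by TMM) and Angpt1 (-2.22 by TMM) keep their sides throughout, and Kdr, Cdh5 and Aplnr lie near 0 and change sign with library totals alone.

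For a comparison that does not depend on the library scaling, each gene was also divided by the summed count of the 22 pan-endothelial markers in the same library, none of which is a member. Per 1000 such counts, Apln had 7.695 and 6.90 in neonates and 1.76 and 3.06 in adults. Vwf had 29.0 and 31.7 against 56.3 and 63.5. Angpt1 had 0.251 and 0.244 against 0.913 and 1.48. Relative to this summed count, these 3 genes kept the direction they had in CPM, although Angpt1 is known to come largely from cells around the vessel. By this ratio 4 of the 10 were higher in both neonatal libraries (Apln, Esm1, Aplnr and Cdh5), 5 were higher in both adult libraries (Flt1, Tek, Vwf, Angpt1 and Angpt2) and Kdr overlapped, with 82.1% of all genes not overlapping. The groups were those of the TMM-scaled values, while in CPM from raw counts Cdh5 was higher in adults and Aplnr and Esm1 overlapped. With Cdh5 alone as the reference, Apln and Esm1 were higher in neonates and the same 5 in adults, with 81.7% of all genes not overlapping, while Kdr and Aplnr overlapped. These ratios were given no test.

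Ligands and receptors that work together were set against each other within each library, in pairs chosen after the counts had been seen. Counts of different genes also depend on their lengths, so a ratio has meaning only against the same ratio in another library. Counts of Angpt2 per count of Angpt1 were 81.9 and 96.1 in neonates and 33.2 and 21.1 in adults. This ratio restates the low level of Angpt1 in neonates, which rests on 17 and 16 counts, while Angpt2 itself was lower in neonates too. Counts of Apln per count of Aplnr were 0.121 and 0.118 in neonates and 0.0317 and 0.0577 in adults. Kdr per count of Flt1 was at 1.58 and 2.05 in neonates and at 1.14 and 1.16 in adults. Vegfa, the main ligand of both receptors, stood at 4.91 and 4.48 counts per count of Flt1 in neonates and 2.26 and 2.59 in adults. Flt1, which was higher in adults, is the denominator of both of these last ratios. The ratios describe these libraries, were given no test, and nothing is read from how many of them did not overlap.

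**Figure D3:**
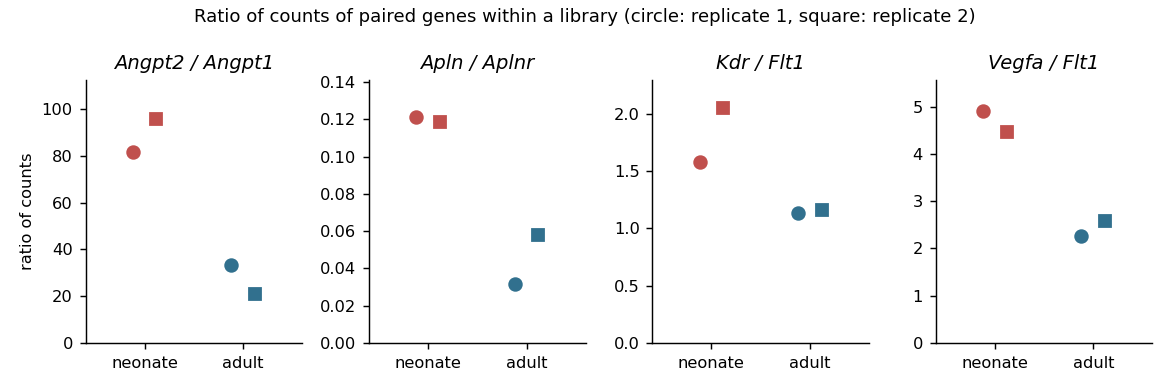
Ratio of the counts of paired genes (y axis, linear from 0) in each library, circles for replicate 1 and squares for replicate 2. Angpt2 over Angpt1 stands at 81.9 and 96.1 in neonates against 33.2 and 21.1 in adults, and Kdr over Flt1 at 1.58 and 2.05 against 1.14 and 1.16, in pairs chosen after the counts had been seen.

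Other genes of vessel growth and endothelial type were counted in 7 lists, 82 tested genes in all. Of these 82, 26 were called higher in neonates, 32 lower and 24 did not pass edgeR's test, with a median log2 fold change of -0.14 against -0.0029 for all genes. Of all genes 31.2% were called higher and 31.1% lower, so these counts do not set the lists apart. With library totals alone, 15 were called higher and 43 lower, where 18.7% of all genes were called higher and 43.3% lower. Without neonate replicate 1 there were 21 and 31. Each list was described by its counts, and no list was tested as a set.

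Among the other pan-endothelial markers, 10 of 21 were called higher in neonates and 6 lower, with a median of 0.16. The largest changes were those of She (-1.43), Mmrn2 (-0.96) and Ptprb (-0.88), all lower in neonates. Ptprb encodes VE-PTP, the phosphatase that restrains Tek, and had 37.4 and 46.4 CPM in neonates against 84.04 and 98.99 CPM in adults (edgeR, Benjamini-Hochberg adjusted p = 0.00020). Mmrn2, a matrix protein of endothelium, was 1.95-fold lower in neonates (adjusted p = 3.5e-05 in the same test). The neonatal values of both were under those of adults in every library. Eng, a TGF-beta co-receptor and the most abundant of the list, had 404 and 384 CPM against 537 and 456 CPM, and its log2 fold change of -0.089 did not pass the test (adjusted p = 0.48 in edgeR's test), although with library totals alone it was called lower (-0.33, adjusted p = 0.021 in the same test). The balance of this list turned with the scaling, since library totals alone gave 6 higher and 9 lower. Without neonate replicate 1, 6 were called higher and 6 lower.

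Of 17 other ligands and receptors of vessel growth, 6 were called higher in neonates and 6 lower, with a median of -0.17. With library totals alone 2 were called higher and 9 lower. Of the VEGF ligands, Vegfa (0.47), Vegfb (0.73) and Vegfd (0.71) were called higher in neonates, Pgf (-0.61), which binds Flt1 and not Kdr, was called lower, and Vegfc (0.18) did not pass the test. Vegfa had 526.5 and 489 CPM in neonates and 421 and 446.5 CPM in adults, and its call was lost with library totals alone (log2 fold change 0.23, adjusted p = 0.057 in edgeR's test). The VEGF co-receptor Nrp1 was lower in neonates, with 145 and 152 CPM against 291 and 311 CPM (log2 fold change -0.78; edgeR, Benjamini-Hochberg adjusted p = 4.6e-05). Calcrl, the receptor through which adrenomedullin acts, had 53.9 and 57.8 CPM against 120.0 and 147 CPM, which is -1.01 as a log2 fold change. Both were apart between ages by more than the spread within them.

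Genes of tip cells and sprouting were split, 4 of 12 called higher in neonates and 3 lower, with a median of 0.00032. With library totals alone 3 were called higher and 5 lower. Lxn, a protease inhibitor, had 44.1 and 38.8 CPM in neonates and 19.7 and 21.5 CPM in adults (log2 fold change 1.26; edgeR, Benjamini-Hochberg adjusted p = 2.6e-05). Mcam, an adhesion molecule that pericytes also carry, was higher in neonates (0.63), and Col4a2, a basement membrane collagen chain, was lower (-0.88). Its partner chain Col4a1, the most abundant of the list, had 1651 and 1679 CPM in neonates and 1689 and 1536 CPM in adults, with a log2 fold change of 0.29. That call was lost under 6 of 14 alternatives, among them library totals alone (0.046, adjusted p = 0.71 in edgeR's test). Dll4, the Notch ligand of tip cells, had 21.2 and 25.1 CPM against 23.5 and 26.4 CPM, and its log2 fold change of 0.14 did not pass the test.

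Arterial, venous and capillary genes were counted apart. Of 9 arterial genes, 2 were called higher in neonates (Notch4 at 0.66 and Jag1 at 0.62, a Notch receptor and ligand) and 2 lower (Bmx at -1.97 and Sema3g at -0.71). Bmx had 61 and 20 counts in neonates, and its log2 fold change was -2.99 without neonate replicate 1 and -1.37 without neonate replicate 2. With library totals alone 1 was called higher and 4 lower, and Notch4 lost its call (adjusted p = 0.069 in edgeR's test). The venous and activated list held 7 tested genes, of which 6 were called lower in neonates, with a median of -0.79. The remaining gene, Icam1, did not pass the test (log2 fold change 0.22). Without neonate replicate 1, 5 genes of this list were called lower and 1 higher, and with either adult library left out 4 were called lower. Of these, Lrg1, a glycoprotein that modulates TGF-beta signalling, had 8.435 and 8.15 CPM in neonates and 27.7 and 25.3 CPM in adults (edgeR, Benjamini-Hochberg adjusted p = 3.0e-05). The selectins Selp and Sele, which catch passing leukocytes, had log2 fold changes of -1.28 and -1.10, and the call of Sele was lost without adult replicate 2 (adjusted p = 0.074 in edgeR's test). Ephb4, the venous receptor and most abundant of the list, was at -0.31, and its call was lost without adult replicate 1 (adjusted p = 0.087 in the same test). In the same libraries leukocyte markers summed to 74.9 and 85.8 CPM in neonates and 142 and 144 CPM in adults, with Csf1r the most abundant, 5 of 7 called lower in neonates and 1 (Aif1) higher. What part such cells have in the activated genes was not tested.

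Of 8 capillary genes, 4 were called lower in neonates and 2 higher, with a median of -0.48. Aqp1, a water channel and the most abundant of the list, had 209.5 and 221 CPM in neonates and 646 and 682 CPM in adults (log2 fold change -1.38; edgeR, Benjamini-Hochberg adjusted p = 4.6e-06). Both adult libraries were far above the neonatal ones. Cd300lg and Ca4, the latter a carbonic anhydrase on the capillary surface, were at -1.76 and -1.96, with at most 7.44 and 3.39 CPM in any library, and Ca4 passed the filter on low counts through its adult libraries alone. With 14 and 36 counts in neonates, Ca4 was at -1.44 without neonate replicate 1 and at -2.77 without neonate replicate 2. Gpihbp1 (0.81), which holds lipoprotein lipase at the capillary wall, and Rgcc (0.63) were higher in neonates. Plvap, the diaphragm protein of fenestrated capillaries, had 304 and 318 CPM against 413 and 328 CPM, and its log2 fold change of -0.0086 did not pass the test.

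Of 8 inhibitors of vessel growth, 5 were called lower in neonates and 2 higher, with a median of -0.77. Thbs1, an antagonist of VEGF signalling, had 11.2 and 11.9 CPM in neonates and 42.1 and 43.2 CPM in adults (log2 fold change -1.64; edgeR, Benjamini-Hochberg adjusted p = 4.5e-06). Timp3, a metalloprotease inhibitor that blocks VEGF binding to Kdr, had 67.2 and 80.0 CPM against 254 and 285 CPM (log2 fold change -1.63). They were 3.12-fold and 3.10-fold higher in adults, with replicates close together. Sema3a, at -1.15, had at most 5.35 CPM in any library, and its call was lost without adult replicate 2 (adjusted p = 0.060 in edgeR's test). Col18a1, which gives rise to endostatin and was the most abundant of the list, was higher in neonates at 0.46, and Thbs2, a relative of Thbs1, was at 0.88. The call of Col18a1 was lost with library totals alone (log2 fold change 0.22, adjusted p = 0.055 in edgeR's test).

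**Figure D4:**
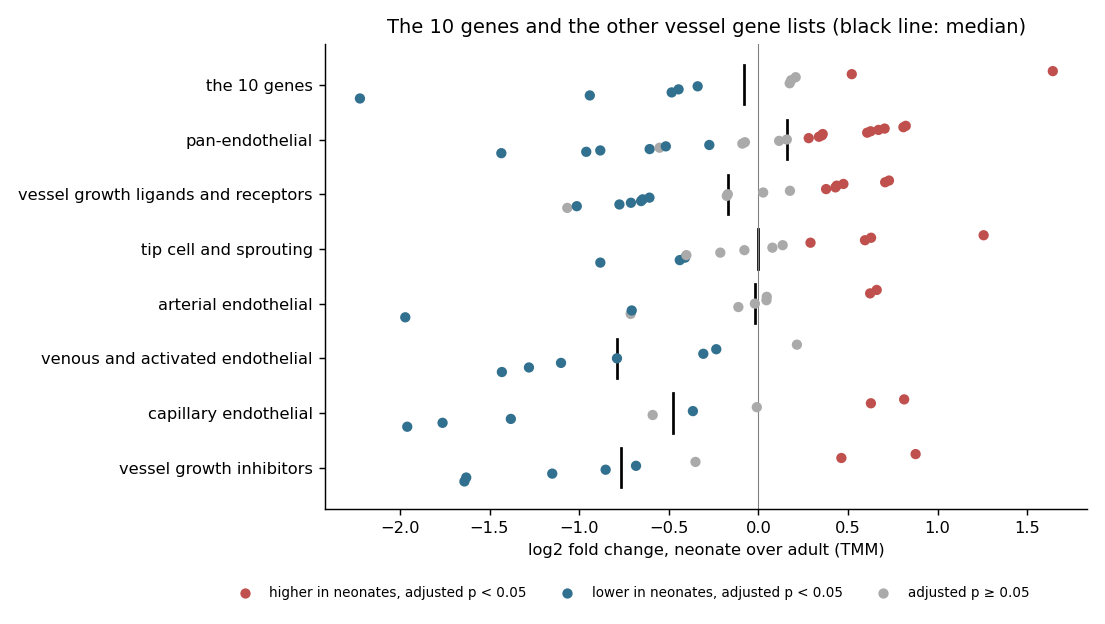
Log2 fold change, neonate over adult by TMM scaling (x axis), of the 10 genes and of each tested gene in the 7 other vessel gene lists, coloured by the call in edgeR's test, with a black line at the median of each list. The venous and activated list (median -0.79) and the inhibitor list (median -0.77) lie furthest to the adult side, and the tip cell list is centred near 0.

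Markers of cells other than endothelium were measured in the same libraries. Markers of glomus cells summed to 8293 and 7071 CPM in neonates and 8806 and 7439 CPM in adults, with Rgs4 the most abundant, 5 of 13 called higher in neonates and 3 lower. Replicates of an age differed by more than the ages did. Markers of dividing cells fell with age at all 10 genes, from 670 and 593 CPM in neonates to 176 and 179 CPM in adults, and none of the 10 is particular to endothelium. Mki67, the most abundant of them, had 181 and 158 CPM against 38.4 and 40.7 CPM. The part of dividing cells, of blood cells and of tissue beside the CB in the levels of the endothelial genes was not tested.

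**Figure D5:**
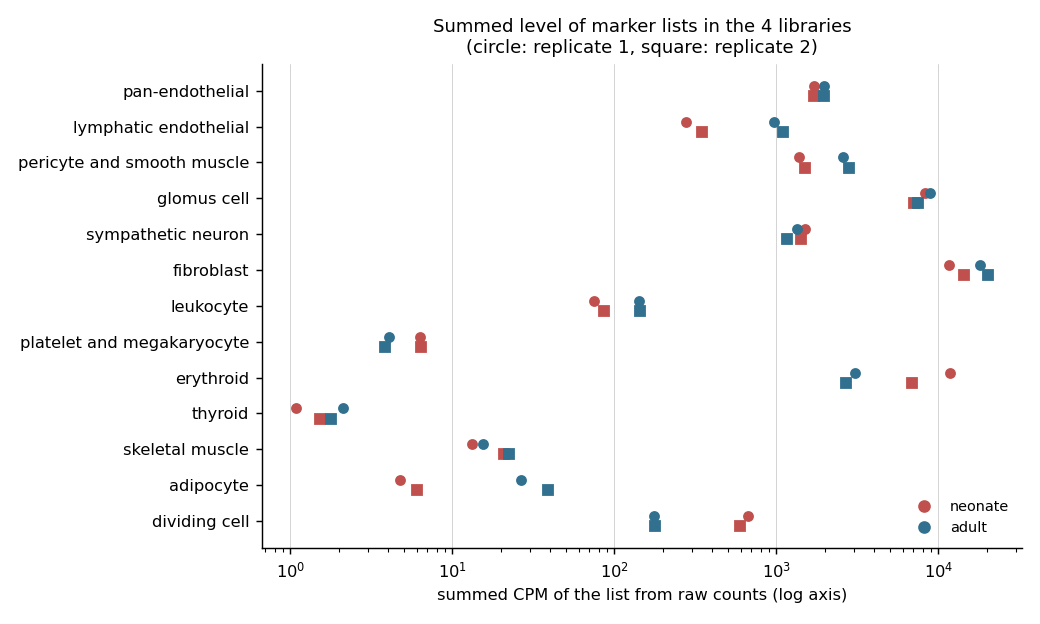
Summed CPM from raw counts (x axis, log scale) of the pan-endothelial list and of the marker lists other than parathyroid and glia, with neonatal and adult libraries in their own colours, circles for replicate 1 and squares for replicate 2. Pan-endothelial (1715 and 1706 against 1971 and 1972 CPM), lymphatic, pericyte and smooth muscle, fibroblast, leukocyte and adipocyte sums lie higher in both adult libraries. Thyroid sums do too, at no more than 2.12 CPM. Dividing cell, erythroid, platelet and sympathetic neuron sums lie higher in both neonatal libraries.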

How the data were processed

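The deposited values are estimated counts of each gene, from Salmon 1.5.2 and Rnor_6.0 per the labels. The study's text also names STAR, and whether strand was used in counting is not given in the sources used here. All 10 genes had whole counts, and counts were rounded for testing. Genes annotated in RefSeq as other than protein-coding (636 by symbol or synonym) and genes without at least 1 CPM in 2 libraries were left out, which kept 13843 genes. The main test was edgeR 4.0.16 (R 4.3.3) with TMM factors and its quasi-likelihood F test, neonates against adults, with Benjamini-Hochberg adjustment and a threshold of 0.05. A standard error is the size of the log2 fold change before edgeR's moderation by a prior count, over the root of F. DESeq2 1.42.0 and limma 3.58.1 (voom) were alternatives, with other scalings, filters, a replicate block and each library left out.

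The labels number replicates 1 and 2 at each age. Nothing in them says that libraries of an age came from separate litters, so p-values measure the spread between these libraries, which differed beyond counting error (chi-square per degree of freedom 28.96 in neonates and 13.32 in adults). The study's methods give 3 replicates per age, while the deposited table holds 2 per age, and all of these were analysed here. Limits from counts cover counting error only.

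The 10 genes and all lists were chosen with earlier results of these data known. Named genes were all 10 members, from each vessel list the 3 called genes without overlap that had the largest fold change and the most abundant gene, from each marker list the most abundant gene and any at 0, and Pth. Other genes named were chosen after their values were seen. Of 182 symbols in the lists, 5 were not matched and not analysed here (Pecam1, Apela, Ackr1 and Cd36 in the vessel lists), and Ca4 and Tp53i11 were matched by synonym. Glial markers are not reported here.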

Additional observations from a re-analysis of the deposited data

How the results depend on the processing

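Flt1, Vwf, Angpt2 and Apln kept their direction and their call in all 14 alternatives, as did Angpt1 in the 13 in which it was tested. With libraries scaled to their totals alone, 2584 genes of the table were called higher in neonates (704 at 2-fold or more), 1 of the 10 genes was (Apln) and 15 genes of the other vessel lists were, and the log2 fold changes of Cdh5 (-0.063), Kdr (-0.067) and Aplnr (-0.038) turned negative. By that scaling the median log2 fold change over all genes was -0.25. With a mean of at least 5 CPM, where fewer genes were tested, 654 genes were higher and 1169 lower at 2-fold or more. The summed endothelial level, with a log2 ratio of -0.20 in CPM from raw counts, had one of 0.041 after TMM scaling, and the mean of log2 CPM from raw counts (pseudocount 0.01) had one of -0.28, and with Cdh5 as the reference 2 members were higher in neonates. With each library left out in turn, the members called higher changed. Kdr ran from -0.0048 to 0.34 and Eng from -0.21 to 0.045, and the cause was not tested. The fit with the replicate block called 3 of the 10 higher, adding Aplnr (adjusted p = 0.028 in edgeR's test), and 5 lower, with 4542 and 4551 among all genes. Deviations of same-numbered libraries had a correlation of -0.0154 over 13843 genes, which does not settle whether those libraries share an origin. By the study's methods, part of the litter was kept until day 21, so pools of the 2 ages may hold littermates. Which pools would share a litter is not stated. Pecam1 as a reference could not be run, since its symbol was not matched. With 2 libraries per age, exact permutation cannot go below p = 0.333. The 17 and 16 counts of Angpt1 in the neonatal libraries limit its precision. In the main fit Angpt1 passed the filter on low counts through its adult libraries alone, so its being tested already called for a difference.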

Other observations

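Sympathetic neuron markers summed to 1509 and 1412 CPM in neonates and 1335 and 1154 CPM in adults. Snap25, a synaptic protein and the most abundant of them, did not pass the test (log2 fold change -0.11), while the other 5 of 6 were called higher in neonates, among them Npy, a neuropeptide of sympathetic nerves, with 152 and 116 CPM against 41.5 and 38.2 CPM. Adipocyte markers summed to 4.71 and 6.00 CPM in neonates and 26.3 and 39.1 CPM in adults, with Plin1, a lipid droplet protein, the most abundant. All 3 that were tested were called lower in neonates. Cidec, among these 3, passed the filter on low counts through its adult libraries alone, so its place among the genes tested already called for a difference. Skeletal muscle markers, led by Tnnt3, summed to between 13.2 and 22.2 CPM, and the 3 tested did not pass edgeR's test, with Acta1 nearest to it (adjusted p = 0.054). Thyroid markers summed to between 1.09 and 2.12 CPM, with Tshr the most abundant.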
